A study of Mus musculus with 8 samples.

Results

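The genes described here are 38 genes of glycolysis and of the transcriptional response to low oxygen, taken by symbol out of 21240 genes in a table of RNA counts from NMuMG cells, an established line of normal mouse mammary gland epithelium. They were listed by name, with earlier results of these data already known. The list holds 2 glucose and lactate transporters and 16 enzymes that lead from glucose to lactate. It also holds 4 kinases that set the flow through glycolysis or into mitochondria, and 16 hypoxia genes outside glycolysis. The wild-type (WT) cells, grown with serum and insulin, received BRM014 for 30 h, its vehicle DMSO for 30 h, BRM014 for 6 h or DMSO for 6 h, with 2 libraries in each group. BRM014 blocks the ATPase activity of SMARCA4 and SMARCA2, the motor subunits of the SWI/SNF (BAF) chromatin remodeler, and its dose is not given in the sources used here. The labels call the 2 libraries of a group biological replicates without stating separate passages or days, so the p-values measure only the spread between these samples, which may be technical. Of the 38 genes, 35 had enough counts to be tested, among 11835 tested genes in all.

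Glycolysis converts glucose to pyruvate in the cytosol, and lactate dehydrogenase turns pyruvate into lactate, which regenerates the NAD+ that the pathway consumes. When oxygen falls, the HIF-alpha subunits escape hydroxylation by the EGLN prolyl hydroxylases, pair with ARNT and bind the short DNA core of the hypoxia response element. Many glycolytic genes and genes for mitophagy, collagen hydroxylation, blood vessel growth and pH control are HIF targets, and glycolytic genes also answer to MYC, insulin and growth factors without hypoxia.

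The promoters of 7 genes with large changes under BRM014 or with time are shown, chosen after their values were seen, with the core letters of the hypoxia response element in capitals. Each is the 250 bases before the first start that RefSeq lists on GRCm38.p6, written 5′ to 3′ on the strand of the gene. The searched letters were ACGTG and GCGTG on both strands, so that CACGT and CACGC are the same cores on the other strand, and overlapping matches such as CACGTG count as 1 site.
Ldha (chr7:46845554-46845803, plus strand): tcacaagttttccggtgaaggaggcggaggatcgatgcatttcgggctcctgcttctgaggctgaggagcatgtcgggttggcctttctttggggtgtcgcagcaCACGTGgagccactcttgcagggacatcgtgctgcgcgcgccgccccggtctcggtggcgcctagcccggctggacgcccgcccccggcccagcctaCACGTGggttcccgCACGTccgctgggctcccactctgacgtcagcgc
Pdk1 (chr2:71872974-71873223, plus strand): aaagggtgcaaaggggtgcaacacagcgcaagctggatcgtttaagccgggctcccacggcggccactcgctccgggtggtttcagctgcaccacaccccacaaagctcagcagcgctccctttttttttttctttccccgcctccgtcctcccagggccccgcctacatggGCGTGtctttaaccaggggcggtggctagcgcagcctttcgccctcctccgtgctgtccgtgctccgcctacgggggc
Bnip3 (chr7:138909507-138909756, minus strand): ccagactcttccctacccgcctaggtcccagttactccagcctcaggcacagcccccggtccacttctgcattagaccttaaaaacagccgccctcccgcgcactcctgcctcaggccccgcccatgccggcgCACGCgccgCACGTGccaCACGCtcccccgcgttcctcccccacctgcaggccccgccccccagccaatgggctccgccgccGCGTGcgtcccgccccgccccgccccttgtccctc
Egln3 (chr12:54203875-54204124, minus strand): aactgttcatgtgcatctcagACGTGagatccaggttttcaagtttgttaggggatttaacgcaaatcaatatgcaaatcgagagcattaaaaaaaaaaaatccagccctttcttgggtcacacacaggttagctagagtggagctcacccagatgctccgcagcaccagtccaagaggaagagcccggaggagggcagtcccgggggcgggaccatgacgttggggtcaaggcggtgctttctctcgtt
P4ha2 (chr11:54100674-54100923, plus strand): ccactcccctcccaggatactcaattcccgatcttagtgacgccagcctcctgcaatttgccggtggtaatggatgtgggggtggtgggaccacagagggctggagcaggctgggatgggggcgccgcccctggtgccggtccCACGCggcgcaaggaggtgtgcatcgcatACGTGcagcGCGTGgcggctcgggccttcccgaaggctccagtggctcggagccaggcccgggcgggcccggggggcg
Hk2 (chr6:82774455-82774704, minus strand): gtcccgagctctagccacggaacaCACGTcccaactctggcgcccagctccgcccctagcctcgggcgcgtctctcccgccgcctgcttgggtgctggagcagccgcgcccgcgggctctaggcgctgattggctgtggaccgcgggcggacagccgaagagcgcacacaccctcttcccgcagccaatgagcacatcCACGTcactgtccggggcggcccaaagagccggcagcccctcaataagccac
Pfkfb3 (chr2:11553930-11554179, minus strand): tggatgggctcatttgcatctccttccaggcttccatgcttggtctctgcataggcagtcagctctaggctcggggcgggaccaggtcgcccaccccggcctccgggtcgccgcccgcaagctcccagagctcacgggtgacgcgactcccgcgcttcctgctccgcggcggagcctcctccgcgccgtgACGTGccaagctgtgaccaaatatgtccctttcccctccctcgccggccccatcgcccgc
Ldha held 3 such sites, the nearest 34 bases before the start, and Bnip3 held 4. P4ha2 held 3 sites, Hk2 held 2, and Pdk1, Egln3 and Pfkfb3 held 1 each. At any listed start, 32 of the 36 genes with an entry held a site (88.9%), against 62.6% of tested genes and 41.5% of all genes in the same windows. The G and C content was 61.2% for these genes, 60.1% for tested genes and 53.2% for all genes. A site was present for 13 of 16 enzymes (81.2%) and 13 of 14 hypoxia genes outside glycolysis (92.9%). Genes differ in their number of listed starts. Of single windows, 75.9% held a site for these genes, 56.4% for tested genes and 38.6% for all genes. The share was 74.1% for the enzymes and 73.7% for the hypoxia genes outside glycolysis. Tpi1, Gpi1, Eno2 and Car12 held none at any listed start, and Ndrg1 and Bnip3l had no entry. At the first listed start, the window shown above for 7 genes, Vegfa, Aldoa, Hk1, Pkm and Mxi1 also held none. A match of letters is a description of the sequence and no measure of binding.

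Library totals ran between 17859693 and 29955366 counts, and replicates correlated at r = 0.990 to 0.994 on the log2 scale. Levels are CPM, counts divided by the library's size after TMM scaling, and changes are log2 fold changes ± standard error from edgeR's quasi-likelihood fit of all 8 libraries. A gene passed the test where its Benjamini-Hochberg adjusted p over all tested genes was below 0.05. The epithelial markers Krt8, Krt18 and Cdh1 were expressed in every library, whereas Epcam and Cldn7 were listed at 0 in all 8 and Krt7 reached at most 0.489 CPM. The 6 epithelial markers summed to 6780 to 8003 CPM in BRM014 at 30 h, 4356 to 4514 CPM in DMSO at 30 h, 5259 to 5726 CPM in BRM014 at 6 h and 5186 to 5647 CPM in DMSO at 6 h. The 5 immune markers, nearly all Cd68, summed to 2.12 to 2.35 CPM, 3.81 to 6.20 CPM, 3.80 to 5.20 CPM and 6.96 to 8.06 CPM in the same 4 groups. The 5 fibroblast markers summed to 0.513 to 2.77 CPM over the 8 libraries, with Lum at 0, the 5 endothelial markers to at most 0.260 CPM and the 4 muscle and adipocyte markers to at most 0.312 CPM. The epithelial sum was higher in BRM014 than in DMSO at 30 h and, within DMSO, lower at 30 h than at 6 h. The immune sum was lower in BRM014 at both times. Their part in the results below was not tested. In bulk RNA, fewer cells of a type and less RNA per cell cannot be told apart.

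More of these genes were lower than higher in BRM014 at both times. At 30 h 18 of the 35 tested genes fell (51.4%) and 2 rose (5.71%) in BRM014 relative to DMSO, where 19.1% of all tested genes fell and 16.8% rose. At 6 h 10 fell (28.6%) and 4 rose (11.4%), where 14.4% of all tested genes fell and 9.35% rose. The median log2 fold change of the 35 was -0.38 at 30 h and -0.12 at 6 h, beside -0.00 and -0.01 over all tested genes. In the vehicle more of them rose than fell with time: 17 of the 35 rose (48.6%) and 3 fell (8.57%) in DMSO at 30 h relative to DMSO at 6 h, where 18% of all tested genes rose and 17.2% fell. These comparisons share libraries (the DMSO samples serve both as vehicle controls and as time points), so their values are set side by side only.

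**Figure D1:**
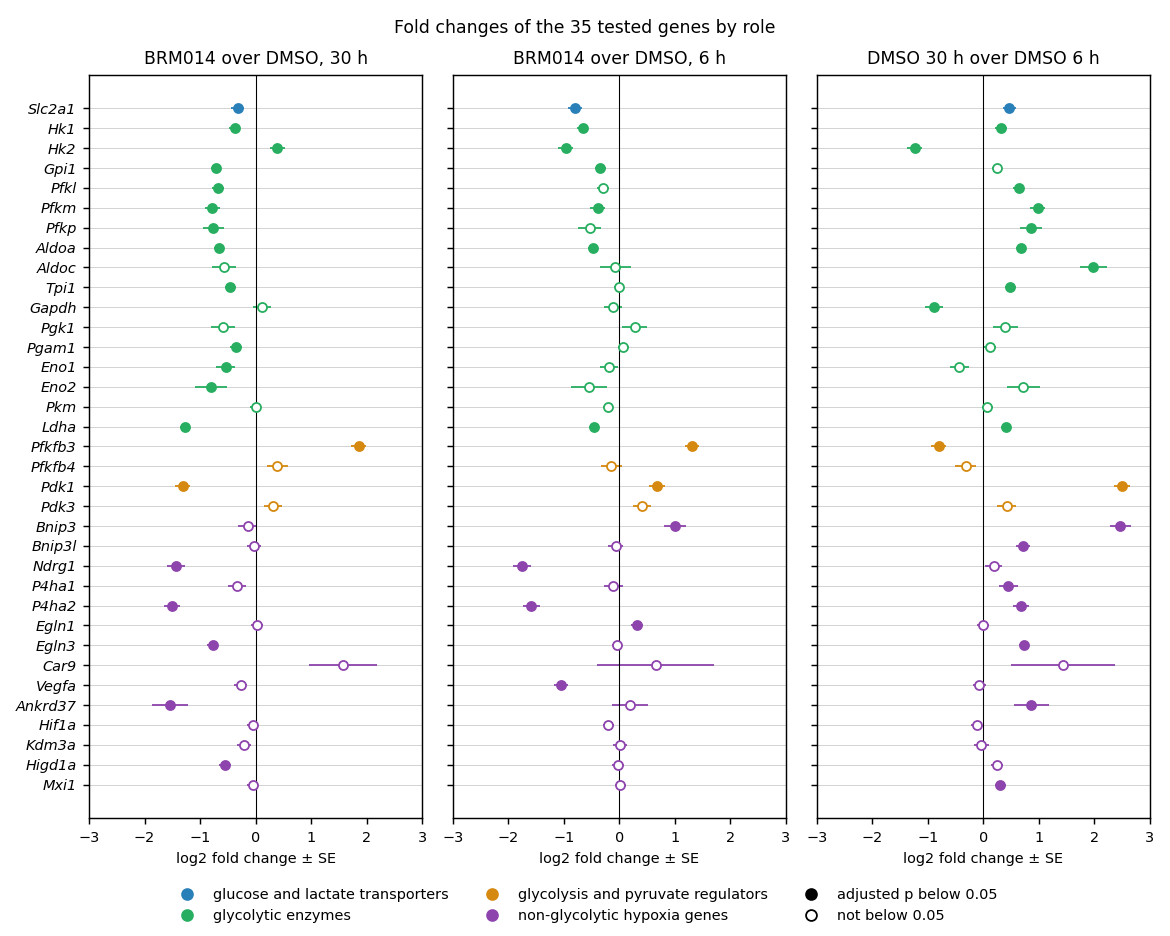
Log2 fold change ± SE (horizontal axis) of each of the 35 tested genes, in rows by role, for BRM014 over DMSO at 30 h, BRM014 over DMSO at 6 h and DMSO 30 h over DMSO 6 h; filled points passed the test (n = 2 libraries a group). Most enzymes (green) lie left of 0 in the BRM014 panels and right of 0 in the time panel, with Hk2 at 0.39, -0.97 and -1.24 as an exception at 30 h and with time.

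The transcript of the glucose importer fell in BRM014 at 6 h, and its fall at 30 h was close to the threshold. Slc2a1, which encodes the main glucose importer GLUT1, had 113 and 111 CPM in BRM014 at 30 h, 151 and 128 CPM in DMSO at 30 h, 62.7 and 52.8 CPM in BRM014 at 6 h, and 109 and 92.2 CPM in DMSO at 6 h. Both BRM014 libraries lay below both DMSO libraries at each time. The change was -0.32 ± 0.12 (adjusted p = 0.0491) at 30 h and -0.81 ± 0.12 (adjusted p = 0.000322) at 6 h, and the difference between the times did not pass (0.48 ± 0.17, adjusted p = 0.116). The call at 30 h ended under 12 of the 17 alternatives. Among them were RLE factors (adjusted p = 0.0554), library totals (0.0736), a stricter filter (0.0557) and only the compared libraries (0.0586). Slc16a3, which encodes the lactate exporter MCT4, had 0 counts in all 8 libraries. By counting error only (3 counts), that allows at most 0.0977 to 0.163 CPM depending on the library. Epcam and Cldn7 were also at 0 in all 8, and the annotation used for counting is not given in the sources used here.

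Both hexokinases, which trap glucose as glucose phosphate, fell at 6 h. At 30 h Hk1 fell and Hk2 rose, and some alternatives ended these calls. Hk2, the inducible form, had 50.4 and 66.1 CPM in BRM014 at 30 h, 43.0 and 46.1 CPM in DMSO at 30 h, 57.1 and 50.6 CPM in BRM014 at 6 h, and 115 and 95.2 CPM in DMSO at 6 h. The DMSO libraries at 6 h stood above all others, and Hk2 was higher in BRM014 at 30 h (0.39 ± 0.14, adjusted p = 0.0415) and lower at 6 h (-0.97 ± 0.14, adjusted p = 0.000191). In DMSO the gene fell with time by 1.24 ± 0.14 on the log2 scale (adjusted p = 5.07e-05), and in BRM014 its libraries at 30 h and 6 h overlapped (0.12 ± 0.14, adjusted p = 0.524). The BRM014 effect at 30 h exceeded that at 6 h by 1.36 ± 0.19 (adjusted p = 0.00105). Hk1, the constitutive form, fell at both times (-0.38 ± 0.10 at 30 h and -0.67 ± 0.10 at 6 h, adjusted p = 0.0115 and 0.000418). At 30 h the rise of Hk2 ended under 6 of the 17 alternatives and was 0.18 without BRM014 30 h replicate 2, and the fall of Hk1 ended under 3. Per kilobase of exon, Hk1 averaged 37.0 CPM and Hk2 10.4 CPM in BRM014 at 30 h, beside 48.1 and 7.94 CPM in DMSO at 30 h. At 6 h Hk1 averaged 24.3 and Hk2 9.59 CPM per kilobase in BRM014, beside 38.5 and 18.7 CPM in DMSO.

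The steps between glucose phosphate and the triose phosphates fell together at 30 h. Gpi1, the isomerase, had 333 and 367 CPM in BRM014 against 579 and 572 CPM in DMSO at 30 h (-0.72 ± 0.09, adjusted p = 6.11e-05). The phosphofructokinases, which run the committed step, fell as well: Pfkl by 0.68 ± 0.10, Pfkm by 0.78 ± 0.13 and Pfkp by 0.76 ± 0.19 on the log2 scale (adjusted p = 0.000188, 0.000419 and 0.00692). At 6 h the same enzymes gave -0.34 ± 0.09 for Gpi1, -0.30 ± 0.10 for Pfkl, -0.39 ± 0.13 for Pfkm and -0.54 ± 0.20 for Pfkp, of which Gpi1 and Pfkm passed (adjusted p = 0.0175 and 0.044). Aldoa, the abundant aldolase, had 990.5 and 1103 CPM in BRM014 against 1720.4 and 1599 CPM in DMSO at 30 h, and 732 and 749.9 CPM in BRM014 against 1082 and 988 CPM in DMSO at 6 h. It fell at both times, by 0.67 ± 0.09 on the log2 scale at 30 h (adjusted p = 0.000107) and by 0.48 ± 0.09 at 6 h (adjusted p = 0.00206), with no overlap between the groups. Tpi1, which interconverts the triose phosphates, fell at 30 h (-0.45 ± 0.09, adjusted p = 0.00202) and gave no call at 6 h (-0.01 ± 0.09, adjusted p = 0.964). Aldoc, the aldolase typical of brain, was scarce, at 4.33 and 4.73 CPM in BRM014 and 6.41 and 7.04 CPM in DMSO at 30 h, and its change did not pass (-0.57 ± 0.22, adjusted p = 0.061).

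Among the last steps, lactate dehydrogenase passed at both times. Ldha had 799.8 and 840.3 CPM in BRM014 at 30 h, 2070.4 and 1908 CPM in DMSO at 30 h, 1081 and 1090.2 CPM in BRM014 at 6 h, and 1511 and 1491 CPM in DMSO at 6 h. It fell by 1.28 ± 0.09 on the log2 scale at 30 h (adjusted p = 1.94e-07) and by 0.47 ± 0.09 at 6 h (adjusted p = 0.0014), and the difference between the times passed (-0.81 ± 0.12, adjusted p = 0.00149). Over time Ldha rose in DMSO (0.41 ± 0.09, adjusted p = 0.00301) and fell in BRM014 (-0.40 ± 0.09, adjusted p = 0.00289), and no 2 of the 4 groups overlapped. Pkm, the pyruvate kinase, had the highest counted level per kilobase of these transcripts, with no correction for sequence shared with other genes. At 30 h Pkm had 4335 and 5030.2 CPM in BRM014 against 4815 and 4536 CPM in DMSO. It did not pass at 30 h (0.00 ± 0.10, adjusted p = 0.989) or at 6 h (-0.20 ± 0.10, adjusted p = 0.15). Pgam1, the phosphoglycerate mutase, fell at 30 h (-0.35 ± 0.10, adjusted p = 0.0183). So did the enolases Eno1 (-0.54 ± 0.17, adjusted p = 0.0261) and Eno2 (-0.80 ± 0.30, adjusted p = 0.0485), while Pgk1, the phosphoglycerate kinase, gave -0.59 ± 0.22 (adjusted p = 0.0553). Gapdh, often taken as a loading control, gave 0.11 ± 0.17 at 30 h and -0.12 ± 0.16 at 6 h (adjusted p = 0.637 and 0.654) and, within DMSO, was lower at 30 h, with 12.2 and 13.0 CPM against 22.4 and 24.2 CPM at 6 h (-0.89 ± 0.17, adjusted p = 0.00144).

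Some of these transcripts have near-identical copies, which leaves their counts uncertain, and the effect on the counts was not tested. Cut into windows of 50 bases, the read length, 82.2% of the Gapdh transcript, 72.0% of Eno1 and 68.0% of Pgk1 also occurred exactly in another gene, and within 3 mismatches Gapdh matched 381 other genes, 353 of them pseudogenes. Bnip3 (48.8%) and Pgam1 (41.6%) followed, then Pkm (30.4%), Bnip3l (23.5%), Gpi1 (19.4%), Ldha (16.9%), Aldoa (13.7%), Tpi1 (7.69%) and Higd1a (7.32%). The other 26 genes had under 1%. Within 3 mismatches the shares were larger, at 71.3% for Aldoa, 65.2% for Pkm, 53.4% for Ldha, 51.7% for Gpi1 and 35.6% for Tpi1. They were 85.6% for Eno1, 85.5% for Gapdh, 83.6% for Bnip3 and 68.5% for Pgk1. Gapdh, Eno1 and Pgk1 had only 5.78 to 24.2 CPM in any library, far below Aldoa, Tpi1 and Ldha. How reads from shared windows were counted is not given in the sources used here. A link between these levels and the shared windows was not tested. Without the 5 genes over 40%, an alternative added after the data were seen, 16 of the remaining genes fell and 2 rose at 30 h, and 10 fell and 3 rose at 6 h.

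**Figure D2:**
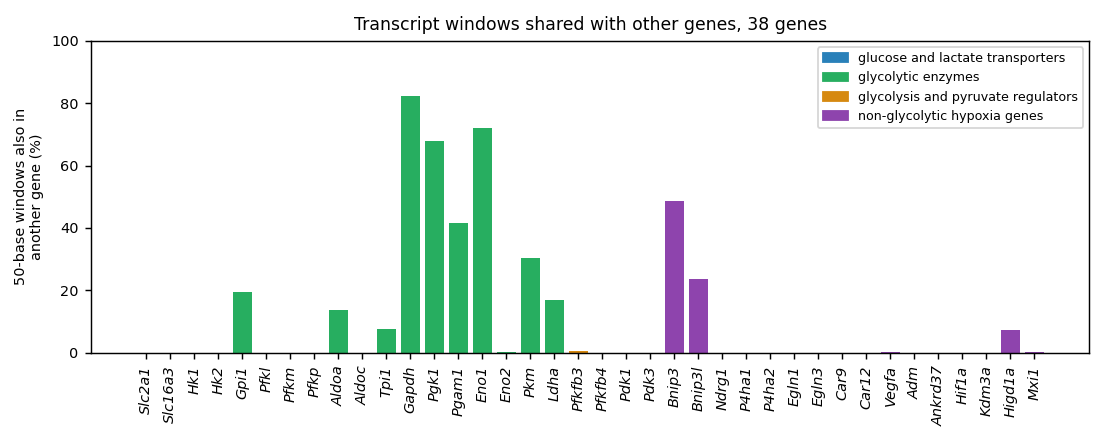
Share of 50-base windows of each gene's longest coding transcript (vertical axis, %) that also occur without a mismatch in another gene, for the 38 genes coloured by role. The bars of Gapdh (82.2%), Eno1 (72.0%) and Pgk1 (68.0%) are the tallest, and Ldha is at 16.9%.

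Of the 4 kinases that regulate the pathway, Pfkfb3 rose at both times and Pdk1 changed sign. Pfkfb3, whose product makes the fructose bisphosphate that activates phosphofructokinase, had 51.4 and 57.9 CPM in BRM014 at 30 h, 13.9 and 16.3 CPM in DMSO at 30 h, 59.6 and 70.6 CPM in BRM014 at 6 h, and 27.2 and 25.6 CPM in DMSO at 6 h. The BRM014 libraries were above every DMSO library, and the rise was 1.85 ± 0.13 (adjusted p = 2.86e-07) at 30 h and 1.30 ± 0.13 (adjusted p = 8.47e-06) at 6 h. Pdk1, whose product shuts pyruvate dehydrogenase and so keeps pyruvate out of mitochondria, had 22.4 and 18.3 CPM in BRM014 at 30 h, 47.7 and 53.0 CPM in DMSO at 30 h, 14.7 and 13.9 CPM in BRM014 at 6 h, and 9.20 and 8.68 CPM in DMSO at 6 h. It was lower in BRM014 at 30 h (-1.31 ± 0.13, adjusted p = 6.34e-06) and higher at 6 h (0.67 ± 0.15, adjusted p = 0.00474), and the difference between the times was -1.99 ± 0.20 (adjusted p = 0.000109). Within DMSO Pdk1 rose 5.63-fold with time (2.49 ± 0.14, adjusted p = 4.58e-07), the largest rise with time in DMSO among the 35. Pfkfb4 and Pdk3, relatives of these kinases, did not pass at either time (Pfkfb4 0.39 ± 0.19 at 30 h and -0.15 ± 0.19 at 6 h, Pdk3 0.31 ± 0.16 and 0.41 ± 0.17, adjusted p = 0.102 to 0.623).

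**Figure D3:**
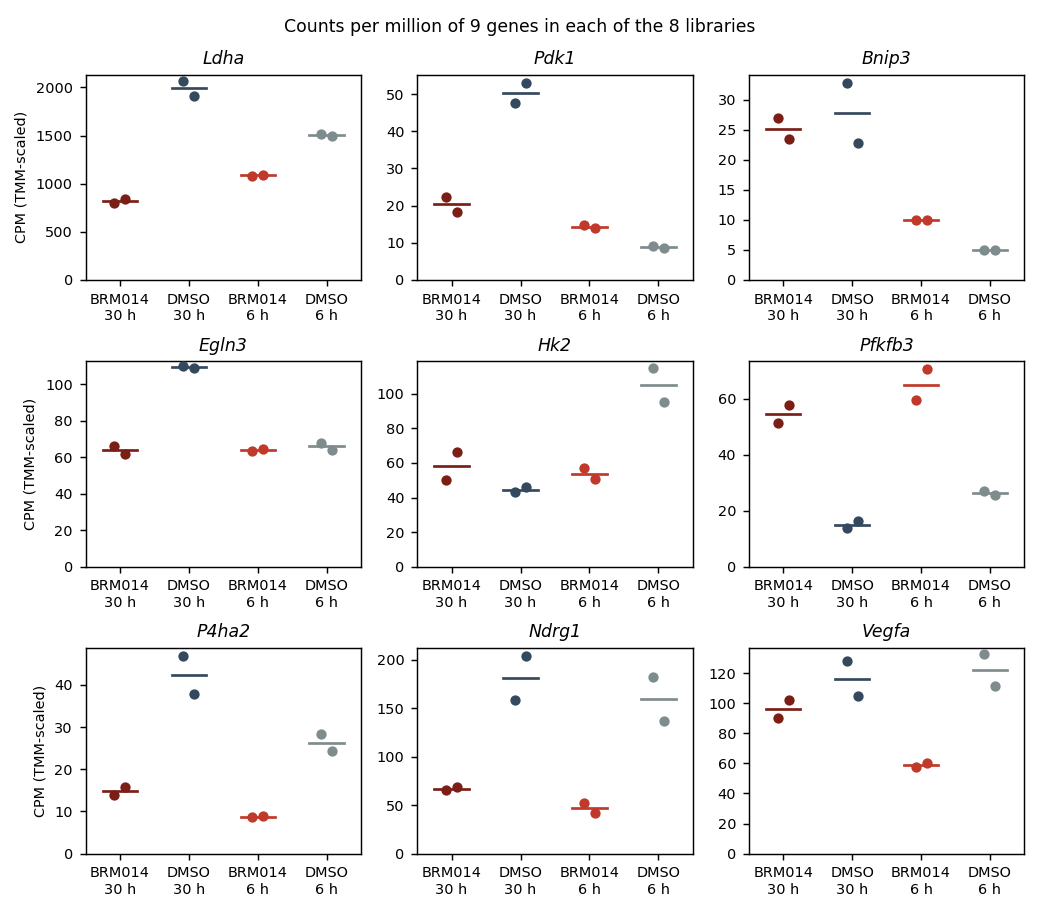
CPM (vertical axes, TMM-scaled, from 0) of 9 genes in each library, 1 panel a gene; points are the 2 libraries of a group and lines their mean. Ldha at 30 h lies at 799.8 and 840.3 CPM in BRM014 against 2070.4 and 1908 CPM in DMSO, Pdk1 and Bnip3 are lowest in DMSO at 6 h, and Egln3 is raised in DMSO at 30 h alone.

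Of all tested genes, 19.1% fell and 16.8% rose at 30 h, and 14.4% fell and 9.35% rose at 6 h. Of the 14 tested hypoxia genes outside glycolysis, 5 fell (35.7%) and none rose at 30 h. Their median was -0.24 (-0.13 and -0.40 without DMSO 30 h replicate 1 and replicate 2). At 6 h 3 of them fell (21.4%) and 2 rose (14.3%), which with 14 genes is close to the shares of all genes. Their median was -0.03 and was 0.05 with library totals as the scale. Of the 16 enzymes, 11 fell (68.8%) and 1 rose (6.25%) at 30 h, with a median of -0.58. At 6 h 6 enzymes fell (37.5%) and none rose, with a median of -0.32 (-0.21 without DMSO 6 h replicate 1). The difference between the enzymes and the hypoxia genes outside glycolysis was not tested. P4ha2, a catalytic subunit of the collagen prolyl hydroxylase, had 13.9 and 15.8 CPM in BRM014 at 30 h, 46.7 and 37.8 CPM in DMSO at 30 h, 8.57 and 8.95 CPM in BRM014 at 6 h, and 28.4 and 24.3 CPM in DMSO at 6 h. Every BRM014 library was below every DMSO library, with -1.50 ± 0.15 (adjusted p = 4.33e-06) at 30 h and -1.59 ± 0.15 (adjusted p = 8.47e-06) at 6 h. P4ha1, the other main subunit, did not pass at either time (-0.33 ± 0.16, adjusted p = 0.13, at 30 h and -0.11 ± 0.17, adjusted p = 0.686, at 6 h). Ndrg1, a stress-response gene, had 65.2 and 68.9 CPM in BRM014 against 159 and 204 CPM in DMSO at 30 h, and 52.6 and 41.9 CPM in BRM014 against 182 and 136 CPM in DMSO at 6 h. It fell at both times (-1.43 ± 0.15 at 30 h and -1.76 ± 0.16 at 6 h, adjusted p = 1.1e-05 and 4.8e-06), and the difference between the times was 0.32 ± 0.22 (adjusted p = 0.452).

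Vegfa, the vessel growth factor, fell at 6 h, with 57.4 and 60.2 CPM in BRM014 against 133 and 111 CPM in DMSO (-1.05 ± 0.12, adjusted p = 3.97e-05). At 30 h it had 90.4 and 102 CPM in BRM014 against 128 and 105 CPM in DMSO, close together and short of the threshold (-0.27 ± 0.12, adjusted p = 0.0986). The difference between the times passed (0.78 ± 0.17, adjusted p = 0.0149). Egln3, a HIF prolyl hydroxylase that is itself a HIF target, had 66.0 and 61.9 CPM in BRM014 at 30 h, 110.1 and 109 CPM in DMSO at 30 h, 63.6 and 64.7 CPM in BRM014 at 6 h, and 67.8 and 64.2 CPM in DMSO at 6 h. Only the DMSO libraries at 30 h stood apart, giving -0.78 ± 0.09 for BRM014 at 30 h (adjusted p = 2.6e-05), -0.04 ± 0.09 at 6 h (adjusted p = 0.804) and a difference of -0.74 ± 0.13 (adjusted p = 0.00477). Its relative Egln1, the main oxygen sensor, gave 0.02 ± 0.11 at 30 h (adjusted p = 0.905) and rose at 6 h (0.31 ± 0.11, adjusted p = 0.0462). Ankrd37, an ankyrin repeat gene among the known HIF targets, was scarce and fell at 30 h, with 1.39 and 1.56 CPM in BRM014 against 3.64 and 4.99 CPM in DMSO (-1.54 ± 0.33, adjusted p = 0.0025). Higd1a, a mitochondrial membrane protein gene, fell at 30 h (-0.55 ± 0.11, adjusted p = 0.00162).

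Of the mitophagy receptor genes, Bnip3 passed at 6 h and Bnip3l at neither time. Bnip3 had 26.9 and 23.4 CPM in BRM014 at 30 h, 32.8 and 22.8 CPM in DMSO at 30 h, 10.0 and 9.89 CPM in BRM014 at 6 h, and 4.93 and 5.04 CPM in DMSO at 6 h, all with the shared windows given above. It rose in BRM014 at 6 h (1.99-fold, 1.00 ± 0.20, adjusted p = 0.00251), and at 30 h the groups overlapped (-0.14 ± 0.17, adjusted p = 0.534). Bnip3l gave small values (-0.03 ± 0.13 at 30 h and -0.07 ± 0.13 at 6 h, adjusted p = 0.895 and 0.752). Hif1a itself had 154 and 143 CPM in BRM014 against 142 and 167 CPM in DMSO at 30 h, and 144 and 146 CPM in BRM014 against 168 and 167 CPM in DMSO at 6 h. Its transcript did not pass (-0.05 ± 0.10, adjusted p = 0.701, at 30 h and -0.20 ± 0.10, adjusted p = 0.158, at 6 h). The histone demethylase gene Kdm3a and Mxi1, which encodes an antagonist of MYC, did not pass under the inhibitor (-0.21 to 0.02, adjusted p = 0.231 to 0.972). Of the carbonic anhydrase genes, Car9 had 1 to 27 counts a library and did not pass (1.57 ± 0.61, adjusted p = 0.0617, at 30 h), and Car12 had 0 to 9 counts. Adm, which encodes the vasodilator adrenomedullin, had 0 or 1 count, and neither Adm nor Car12 was tested.

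Several of these calls ended when 1 library was left out. At 30 h they were Slc2a1 (without any library but DMSO 30 h replicate 2, adjusted p = 0.0503 to 0.306, and -0.19 without DMSO 30 h replicate 1), Eno2 (without any library but the BRM014 ones at 6 h, 0.063 to 0.191) and Eno1 (without any of the 4 libraries at 30 h, 0.0676 to 0.085). The rise of Hk2 at 30 h ended without either DMSO library at 30 h, either BRM014 library at 6 h or BRM014 30 h replicate 2 (adjusted p = 0.0555 to 0.399), and with only the compared libraries (0.0545). Hk1 and Pgam1 ended without DMSO 30 h replicate 2 (adjusted p = 0.0669 and 0.0506) or BRM014 30 h replicate 1 (0.0771 and 0.11), and Pfkp without BRM014 30 h replicate 1 (0.0656). At 6 h Gpi1 ended without DMSO 6 h replicate 1 (-0.22, adjusted p = 0.201) or either BRM014 library at 6 h (0.143 and 0.0997). Pfkm at 6 h ended without either DMSO library at 6 h, either BRM014 library at 30 h or BRM014 6 h replicate 1 (adjusted p = 0.0564 to 0.384, and -0.22 without the last), and Egln1 without any library but the DMSO ones at 30 h (0.055 to 0.24). Calls of 12 of the 18 genes that fell and 1 of the 2 that rose at 30 h, and of 8 of 10 and 3 of 4 at 6 h, held under all 17 alternatives. With ribosomal protein genes as the scale, Slc2a1, Hk1, Pgam1, Eno1 and Eno2 at 30 h (adjusted p = 0.079 to 0.174) and Gpi1, Pfkm and Egln1 at 6 h (0.0612 to 0.208) did not pass. Other values became calls. At 30 h Pgk1 passed with no filter, DESeq2, limma-voom and a replicate block (adjusted p = 0.00112 to 0.0413). Vegfa passed with no filter (0.0468), and P4ha1 with no filter or a replicate block (0.0209 and 0.0331). Aldoc and Car9 passed with a replicate block (0.0454 and 0.0479). At 6 h Pfkp and Pfkl passed with a replicate block (0.00839 and 0.0337).

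In the vehicle much of the pathway rose with time. In DMSO at 30 h relative to DMSO at 6 h, 18% of all tested genes rose and 17.2% fell, with a median of 0.01. Of 16 enzymes, 8 rose (50%) and 2 fell (12.5%), with a median of 0.40. Of 14 hypoxia genes outside glycolysis, 7 rose (50%) and none fell, with a median of 0.38. After Pdk1, Bnip3 rose most, 5.55-fold (2.47 ± 0.19, adjusted p = 4.06e-06), followed by Aldoc, with 6.41 and 7.04 CPM in DMSO at 30 h against 1.52 and 1.87 CPM in DMSO at 6 h (1.99 ± 0.25, adjusted p = 0.000115). Pfkm (0.98 ± 0.13), Pfkp (0.86 ± 0.19), Egln3 (0.73 ± 0.09), Bnip3l (0.72 ± 0.13), Aldoa (0.68 ± 0.09), P4ha2 (0.68 ± 0.14), Pfkl (0.64 ± 0.10) and Tpi1 (0.49 ± 0.09) also rose, with adjusted p = 0.000119 to 0.00428. Hk2, Gapdh and Pfkfb3 were the 3 genes that fell, Pfkfb3 by 0.80 ± 0.13 on the log2 scale (adjusted p = 0.000675). Vegfa (-0.07 ± 0.12), Ndrg1 (0.19 ± 0.15), Pkm (0.07 ± 0.10) and Hif1a (-0.12 ± 0.10), by contrast, did not pass with time in DMSO (adjusted p = 0.358 to 0.678).

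Of the rises in DMSO, 11 of 17 held under all 17 alternatives. Slc2a1 (0.47 ± 0.12) ended without DMSO 6 h replicate 2 or DMSO 30 h replicate 1 (adjusted p = 0.096 and 0.0671), Hk1 (0.32 ± 0.10) without either DMSO library at 6 h or DMSO 30 h replicate 2 (0.0926 to 0.103), and Pfkp without DMSO 6 h replicate 1 (0.0516). Mxi1 (0.31 ± 0.10) ended without any of the 4 DMSO libraries (adjusted p = 0.0683 to 0.14). P4ha1 (0.45 ± 0.16) ended without either library at 6 h of either treatment or DMSO 30 h replicate 1 (adjusted p = 0.0674 to 0.412), and was 0.19 without the last. Ankrd37 (0.86 ± 0.32) ended without any BRM014 library, DMSO 6 h replicate 2 or DMSO 30 h replicate 2 (adjusted p = 0.0591 to 0.323), and ran between 0.47 and 1.40 without 1 DMSO library at 6 h.

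Under BRM014 more of these genes rose than fell over the same time span. In BRM014 at 30 h relative to BRM014 at 6 h, 14 of the 35 rose (40%) and 5 fell (14.3%), where 19.6% of all tested genes rose and 16.9% fell. The 5 that fell became 3 without BRM014 6 h replicate 1 or without either BRM014 library at 30 h, and 2 without BRM014 6 h replicate 2. Slc2a1 (0.95 ± 0.12), Hk1 (0.61 ± 0.10), Aldoa (0.50 ± 0.09), Aldoc (1.49 ± 0.25), Bnip3 (1.33 ± 0.18), Bnip3l (0.76 ± 0.13), P4ha2 (0.76 ± 0.16) and Vegfa (0.71 ± 0.12) rose, and Ldha and Eno1 (-0.78 ± 0.17) fell, under all 17 alternatives. Egln3 gave -0.01 ± 0.09 in BRM014 against 0.73 ± 0.09 in DMSO, and Pdk1 0.50 ± 0.14 against 2.49 ± 0.14. The enzymes Gpi1, Tpi1 and Pfkl gave -0.12 ± 0.09, 0.04 ± 0.09 and 0.25 ± 0.10 in BRM014 against 0.25 ± 0.09, 0.49 ± 0.09 and 0.64 ± 0.10 in DMSO, with differences that did not pass (adjusted p = 0.122, 0.0635 and 0.146). The difference of Tpi1 passed under some alternatives, among them library totals (adjusted p = 0.0318) and DESeq2 (0.0208), and not under others.

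The difference of the time course, which equals the difference of the BRM014 effect at 30 h minus 6 h, passed for 7 of the 35 genes. It was positive for Hk2 and Vegfa (5.71%, where 3.89% of all tested genes passed as positive) and negative for Ldha, Pdk1, Bnip3, Egln3 and Ankrd37 (14.3%, where 2.59% passed as negative). Of these, 2 are enzymes, 1 is a regulator and 4 are hypoxia genes outside glycolysis. Hk2, Ldha, Pdk1 and Egln3 passed under every alternative that gives this difference. The fit of only the compared libraries does not give it. Bnip3 (-1.14 ± 0.26, adjusted p = 0.0187) ended without any library at 6 h or without BRM014 30 h replicate 2 (adjusted p = 0.0624 to 0.0829), and Vegfa without DMSO 6 h replicate 1, either BRM014 library at 6 h or BRM014 30 h replicate 2 (0.0583 to 0.0997). Ankrd37 (-1.72 ± 0.46, adjusted p = 0.0412) ended without any library but the replicate 1 libraries of DMSO (adjusted p = 0.093 to 0.168). For Slc2a1, Ndrg1, P4ha2 and Pfkfb3 the difference did not pass (0.48, 0.32, 0.08 and 0.55, adjusted p = 0.093 to 0.868), which does not show that the effects at the 2 times were alike. The difference of Slc2a1 passed with no filter on low counts (adjusted p = 0.0474) and without DMSO 30 h replicate 1 (0.0434).

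**Figure D4:**
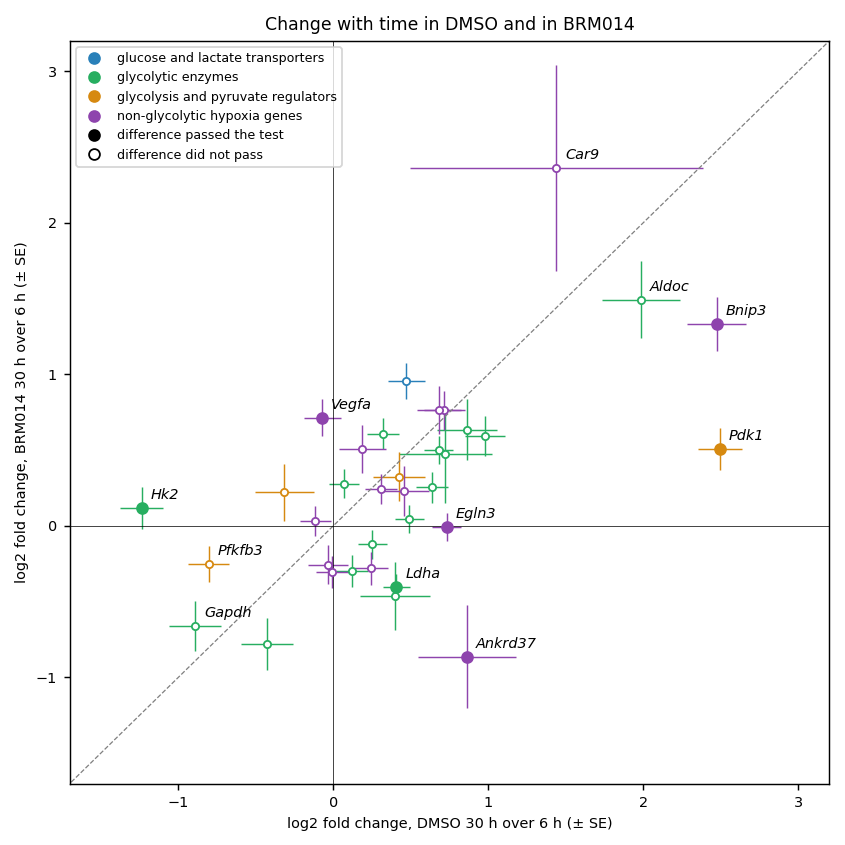
Log2 fold change of 30 h over 6 h in DMSO (horizontal axis) and in BRM014 (vertical axis), ± SE, for the 35 tested genes coloured by role; the dashed line marks equal change, and filled points are genes whose difference passed the test (n = 2 libraries a group). Pdk1 (2.49 in DMSO, 0.50 in BRM014), Ldha (0.41, -0.40) and Egln3 (0.73, -0.01) lie below the line and Hk2 (-1.24, 0.12) above it.

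Isoforms of 1 step differed in level per kilobase of exon. Aldoa averaged 408 CPM per kilobase in BRM014 and 647 in DMSO at 30 h, and Aldoc 1.52 and 2.26. Among the phosphofructokinases at 30 h, Pfkm averaged 50.3 CPM per kilobase in BRM014 and 86.5 in DMSO, Pfkl 31.3 and 50.2, and Pfkp 4.25 and 7.25. Of the enolases at 30 h, Eno1 averaged 2.30 CPM per kilobase in BRM014 and 3.35 in DMSO, with the shared windows given above. Eno2, the enolase of neurons, averaged 0.877 and 1.53 CPM per kilobase. Eno3, not among the 38 genes and not divided by exon length, had 15.5 and 12.5 CPM in BRM014 and 72.1 and 49.8 CPM in DMSO. Ldha averaged 433 CPM per kilobase in BRM014 and 1049.8 in DMSO at 30 h, beside 572.8 and 792 at 6 h.

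Genes around the pathway were read from lists set by name, also with earlier results of these data known. Beside their counts stand the shares of all tested genes, of which 19.1% fell and 16.8% rose at 30 h and 14.4% fell and 9.35% rose at 6 h. Of 12 genes of the HIF machinery, 11 were tested, and 4 fell (36.4%) and 1 rose (9.09%) at 30 h while 1 fell (9.09%) and 1 rose (9.09%) at 6 h. All but the falls at 30 h were at or below the share of all genes. Arnt, the partner of the HIF-alpha subunits, rose at 6 h (0.50 ± 0.10, adjusted p = 0.00177). Its scarce relative Arnt2 fell at 6 h (-4.07 ± 0.92, adjusted p = 0.00563), with 0.0513 and 0.0426 CPM in BRM014 against 0.712 and 1.04 CPM in DMSO. At 30 h Epas1 (-0.98 ± 0.20), which encodes another HIF-alpha subunit, Vhl (-0.56 ± 0.11), whose product marks HIF-alpha for degradation, and Cited2 (-0.59 ± 0.12), an inhibitor of HIF, fell (adjusted p = 0.00179 to 0.00208). Of 25 tested other HIF targets, 7 fell and 7 rose at 30 h (28% each), and 6 fell (24%) and 3 rose (12%) at 6 h. Angptl4, a regulator of lipid metabolism, rose at 30 h, with 41.3 and 38.4 CPM in BRM014 against 8.15 and 6.69 CPM in DMSO (2.43 ± 0.16, adjusted p = 1.4e-07), and so did Hmox1, the heme oxygenase (2.14 ± 0.16, adjusted p = 5.11e-07). The 7 of these targets that fell at 30 h became 4 without BRM014 30 h replicate 2. Stc1, the stanniocalcin gene, was at 0.107 and 0.0652 CPM in BRM014 against 2.45 and 4.38 CPM in DMSO at 30 h.

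Of 12 tested other glycolysis and lactate genes, 3 fell (25%) and 2 rose (16.7%) at 30 h, and 2 fell (16.7%) and 1 rose (8.33%) at 6 h. These are close to the shares of all genes given above. Pklr, the liver and red cell pyruvate kinase, had 0.803 and 0.424 CPM in BRM014 against 23.4 and 29.2 CPM in DMSO at 30 h (-5.50 ± 0.30, adjusted p = 2.41e-08) and fell at 6 h as well (-3.27 ± 0.30, adjusted p = 5.47e-06). Eno3, the muscle enolase, fell too (-2.13 ± 0.17 at 30 h and -1.48 ± 0.17 at 6 h, adjusted p = 1.02e-06 and 4.37e-05). Of 9 pyruvate dehydrogenase genes, 2 fell (22.2%) and 1 rose (11.1%) at 30 h, and 1 fell (11.1%) at 6 h. Pdp1, the phosphatase that opposes the PDK kinases, fell at both times (-0.88 ± 0.14 and -0.97 ± 0.14, adjusted p = 0.000254 and 0.000208), and Pdk2 rose with time in DMSO (2.28 ± 0.26, adjusted p = 5.69e-05). Of 8 pentose phosphate genes, 2 fell (25%) and 1 rose (12.5%) at 30 h and 1 fell and 1 rose (12.5% each) at 6 h. With time in DMSO 5 rose (62.5%, where 18% of all tested genes rose), 2 without DMSO 6 h replicate 2 and 3 without DMSO 30 h replicate 1. G6pdx, which opens that pathway, fell (-0.92 ± 0.09 at 30 h and -0.55 ± 0.09 at 6 h, adjusted p = 3.7e-06 and 0.000508). Of 4 tested glucose-sensing regulators, Txnip, a glucose-induced brake on glucose uptake, fell to 5.89 and 3.68 CPM in BRM014, against 42.8 and 34.1 CPM in DMSO, at 30 h (-3.04 ± 0.36, adjusted p = 2.39e-05). It fell at 6 h also (-2.17 ± 0.36, adjusted p = 0.000724), while Myc, an activator of glycolytic genes, rose at 30 h (0.65 ± 0.17, adjusted p = 0.00843). The call of Myc ended without BRM014 30 h replicate 1 (0.61) and without DMSO 30 h replicate 2 (0.48). That of Arnt2 at 6 h ended without BRM014 6 h replicate 2 (-3.94). The other genes named from these lists kept the calls given here under all 17 alternatives. List counts of 1 to 3 genes often moved by 1 when a library was left out.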

How the data were processed

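Stranded libraries of total RNA were read from 1 end over 50 bases, per the labels' protocols. The values are the authors' deposited raw counts per gene. The submitters' processing notes name mm9, Subread, SAMtools 0.1.19 and featureCounts, and the annotation, strand setting and treatment of reads with several matches are not given in the sources used here. All were whole numbers, with library totals of 17859693 to 29955366.

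Genes were kept with filterByExpr, scaled by TMM and tested 2-sided with edgeR 4.0.16 (quasi-likelihood, 1 fit of 4 group means over 8 libraries, 4 residual degrees of freedom) in R 4.3.3. P-values were adjusted by Benjamini-Hochberg over all 11835 tested genes in each comparison, and the difference of the BRM014 effect is the interaction. The standard error is the log2 fold change divided by the square root of F. The script was tested on simulated data.

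Every one of the 38 genes may be named, and of each other list the 3 genes with the smallest p in the BRM014 and DMSO time comparisons. The genes and lists were chosen with earlier results of these data known. Alternatives were RLE factors, library totals, ribosomal protein scaling, no filter, 1 CPM in 4 libraries, DESeq2 1.42.0, limma-voom (3.58.1), a replicate block, only the compared libraries and each library left out. The fit of only the compared libraries was not run for the difference of the BRM014 effect. Windows of 50 bases every 5 bases of GENCODE vM21 transcripts were aligned with bwa 0.7.19. Exon lengths are from the same annotation, which is not the authors' build. Promoters are RefSeq's on GRCm38.p6, matched by Entrez gene identifier.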

Additional observations from a re-analysis of the deposited data

Results flagged for a closer look

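For 7 genes the BRM014 effect at 30 h differed from that at 6 h by the test of the difference itself, with adjusted p below 0.05 over all tested genes. Hk2 had 1.36 (adjusted p = 0.00105) and Vegfa 0.78 (adjusted p = 0.0149). Ldha had -0.81 (adjusted p = 0.00149), Pdk1 -1.99 (adjusted p = 0.000109), Bnip3 -1.14 (adjusted p = 0.0187), Egln3 -0.74 (adjusted p = 0.00477) and Ankrd37 -1.72 (adjusted p = 0.0412). For Bnip3, 48.8% of 50-base windows also occur in another gene. With 2 libraries a group, no single library could be tested as standing apart.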

How the results depend on the processing

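No gene called in any of the 5 comparisons reversed its direction under the 17 alternatives. Over the 35 genes, comparisons and alternatives, 134 calls ended, 68 uncalled values became calls and 2731 stayed on their side of the threshold. Several counts and medians moved. For BRM014 at 30 h against 6 h, 3 genes fell with library totals and 2 with ribosomal protein scaling, against 5. There the enzyme median was 0.30 and the hypoxia median 0.35 with ribosomal protein scaling, and the hypoxia median was 0.36 with no filter on low counts. Ribosomal protein scaling shifted the median of all genes in that comparison by 0.11. Without the members that share windows, chosen after seeing the data, 2 genes fell there, and the enzyme median was 0.38, -0.43 for BRM014 at 6 h and 0.56 for time in DMSO. The cause of these shifts was not tested.

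The deviations of same-numbered replicates correlated at 0.12 to 0.20 in 5 of the 6 pairs of groups and at 0.01 in the other, and the labels tie a number to no shared day or culture, so the libraries were not treated as paired. A replicate block gave 4 genes higher and 8 lower for the difference of the BRM014 effect, against 2 and 5, and 3 higher and 21 lower for BRM014 at 30 h. The differences it added were those of Slc2a1 (adjusted p = 0.0241), Tpi1 (0.0259), Pfkfb3 (0.0356), Higd1a (0.0425) and Pgam1 (0.0441).

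Leaving out 1 library at a time gave 1 to 3 genes higher and 3 to 5 lower for that difference, 1 to 2 higher at 30 h and 2 to 6 lower for time in BRM014. The enzyme median ran between -0.37 and -0.21 at 6 h, -0.41 and -0.26 for the difference and 0.11 and 0.32 for time in BRM014. The hypoxia median ran between -0.40 and -0.13 at 30 h, -0.21 and -0.011 for that difference, 0.33 and 0.51 for time in DMSO and 0.17 and 0.37 for time in BRM014. Where a group keeps 1 library, it is assumed to vary like the other groups.

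Over all genes, the share of calls that were lower changed with the scale, to 45.1% from library totals against 60.7% for BRM014 at 6 h, 34.1% and with ribosomal protein scaling 31.5% against 48.8% for time in DMSO, 24.9% against 46.3% for time in BRM014 and for the difference 29.4% against 39.9%. Few counts limit what can be said of Adm, with 0 or 1 count a library, Car12, with 0 to 9, and Car9, with 1 to 27.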
